A study of Mus musculus with 9 samples.

Results

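The 6 graft libraries among the 9 RNA-seq libraries of the series were compared as the header of the authors' deposited table groups them. The header sets XW721L, XW734L and XW749L as grafts from donors in shock, and XW744L, XW745L and XW755L as grafts that had cold ischemia without shock. The sample titles place 2 of these libraries in the opposite group, since the title of XW749L names cold ischemia alone and that of XW744L names shock. Titles and header place the other 4 libraries alike, so results with the 6 libraries of the header are set beside those from XW721L and XW734L against XW745L and XW755L, called the 4 libraries.

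All grafts were left lungs of adult wild-type C57BL/6 mice transplanted into Balb/C recipients, and the RNA of the whole left lung was measured. Every donor lung was kept at 0 °C for 24 h and reperfused in the recipient for 2 h. Donors of the shock grafts first spent 4 h in hypovolemic shock, with the mean arterial pressure held at 15 ± 5 mmHg, and then recovered for 20 h. Lungs of 3 naive mice serve as a reference level. Their records point to another series and those of the grafts do not. Batch and treatment cannot be told apart in that contrast, and no test was made against them. No label says that the libraries of a group came from separate animals, and p-values then measure only the spread between these samples, which may be technical. Blood cells of the recipient enter a graft on reperfusion, so each library can hold RNA of both strains, and in whole tissue fewer cells of a type and less RNA per cell cannot be told apart.

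The transcripts of alveolar type 2 cells marked all 6 grafts as lung, with a summed level of 20570 to 29610 CPM (the read count of a gene scaled to the size of its library, with library sizes adjusted by TMM). Graft libraries held 21925550 to 26555560 reads in genes, and a gene with no read could still have had 0.123 to 0.149 CPM, taking 3 reads as the limit that a count of 0 allows. Mitochondrial transcripts took 1.76% to 2.58% of the reads across all 9 libraries.

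Hypovolemic shock starves tissues of blood flow, and the body answers with stress hormones, clotting and inflammation before the lung is taken. A stored lung then meets oxygen again at reperfusion, when endothelium, resident macrophages and entering neutrophils drive the first phase of graft injury. Cells of the lung also run a circadian clock, a loop in which the activators BMAL1 (encoded by Arntl) and CLOCK switch on their own repressors of the PER and CRY families and the REV-ERB receptors. That loop sets the level of many lung transcripts by time of day. The time of day at which each lung was taken is not in the labels used here.

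Likeness between libraries was described first, because 2 of the 6 had a group in doubt. Across the 15175 genes tested, the highest correlation of log2 CPM was 0.989, between XW744L and XW745L. The next was 0.983, between XW749L and XW721L. Both of these pairs share a header group and differ in title group. XW749L was nearly as close to XW755L, with 0.978, a library of its title group. XW734L had the lowest correlations, from 0.946 with XW755L to 0.967 with XW721L. These correlations run over genes, which are not independent replicates, and are given as a description.

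The first principal component held 43.3% of the variance and set XW734L, at 69, apart from the other 5, which lay between -32.6 and 13.1. The second held 25.1%. On it XW744L (29.6) lay beside XW745L (28.7), XW749L (-28.9) lay beside XW721L (-33.1), and XW755L (-11.8) was nearer to the latter pair. On the first component the header groups did not overlap, with shock grafts at -7.1, 13.1 and 69 and cold-ischemia grafts at -32.6, -21.3 and -21.1, while the title groups overlapped. On the second both groupings overlapped. XW734L is the library that stands apart.

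**Figure D1:**
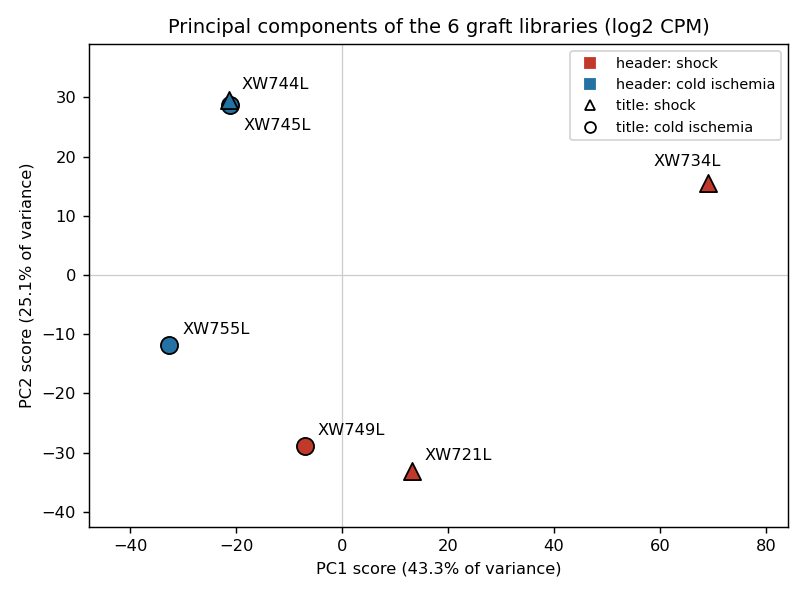
Scores of the 6 graft libraries on the first component (x axis, 43.3% of the variance of log2 CPM) and the second (y axis, 25.1%). Colour gives the group in the table header and shape the group in the title, and XW744L lies beside XW745L while XW734L lies alone at 69 on the x axis.

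A measure that did not use the 2 disputed libraries was also taken. In the 4 libraries placed alike, 469 genes had an unadjusted p under 0.01, and for each of these the disputed libraries were placed on a line from the cold-ischemia mean (0) to the shock mean (1). XW744L was nearer to the shock mean in 39 of the 469 genes, 8.32%, and its median position was 0.12. XW749L was nearer to the shock mean in 222 genes, 47.3%, with a median position of 0.48. These shares describe 1 library each, and no interval is given, since genes of a library are not independent. Over all genes tested the shares were 34.7% for XW744L and 47.5% for XW749L. XW744L, titled as shock, thus lay close to the cold-ischemia mean at these genes, while XW749L lay midway. The choice of 0.01 was made after the data were seen, because no gene passed the adjusted threshold in these 4 libraries. With the 58 genes under 0.001 the shares were 1.72% for XW744L and 63.8% for XW749L.

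Genes were called with edgeR's quasi-likelihood test at a Benjamini-Hochberg adjusted p under 0.05. In the header grouping 17 genes were called, 0.112% of the 15175 tested. Of these 8 were higher in shock grafts (0.0527%) and 9 lower (0.0593%), and 2328 genes (15.3%) had an unadjusted p under 0.05. In the 4 libraries no gene was called (0%), the smallest adjusted p of edgeR's test was 0.0687, and 1821 genes (12%) had an unadjusted p under 0.05. DESeq2 called 557 genes (3.67%) in the header grouping and 349 (2.3%) in the 4 libraries. With the grouping of the titles edgeR called no gene (0%), 655 genes (4.32%) had an unadjusted p under 0.05, and DESeq2 called 6 (0.0395%). The number of calls depended on single libraries. It was 0 without XW744L and 0 without XW745L, 1 (Arntl) without XW721L, 14 without XW755L, 46 without XW749L and 214 without XW734L. All 17 called genes were among the 214.

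The same 17 genes kept their direction in the 4 libraries, where none overlapped between groups and each had an unadjusted p under 0.05 and a DESeq2 adjusted p under 0.05. Their log2 fold changes had sizes of 1.05 to 3.49 with 6 libraries and 1.09 to 3.97 with 4, and their adjusted p with 4 libraries ran from 0.0687 to 0.26 by edgeR's test. The 4 libraries are part of the 6, so this is not an independent repeat. Each of the 17 also had an adjusted p under 0.05 in the authors' deposited table, which lists 483 such genes among the 15604 with an adjusted p. Of the genes tested here 480 (3.16%) had one. The authors' values come from the same 6 libraries in the same header groups, so they are no independent repeat either.

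**Figure D2:**
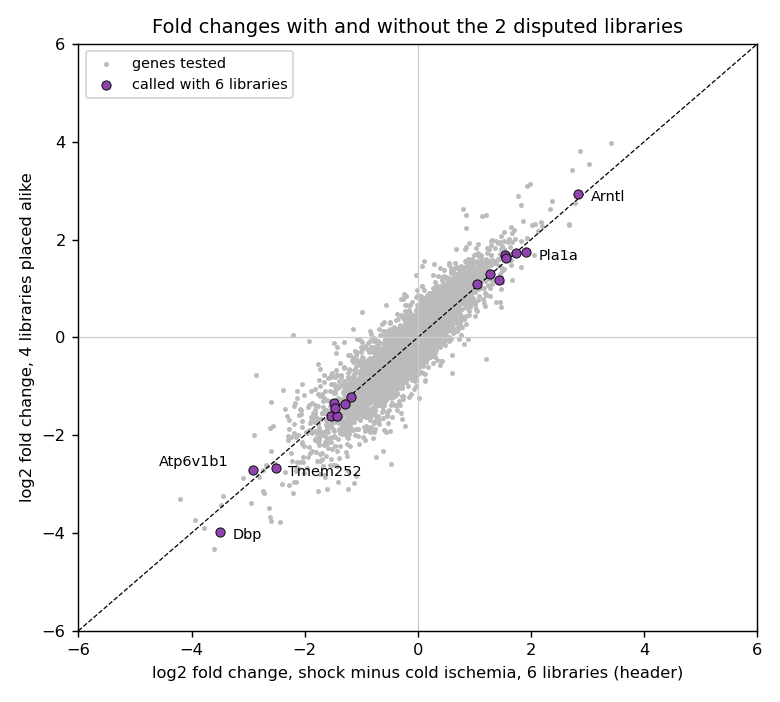
Log2 fold change (shock minus cold ischemia) of each gene tested with the 6 libraries of the header (x axis) and with the 4 libraries placed alike (y axis). Purple points are the 17 called genes, the dashed line marks equal values, and all 17 lie on the same side of 0 on both axes.

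Genes of the circadian clock led the calls. Among the called genes the largest rise was that of Arntl and the largest fall that of Dbp, and Hlf was called too. Of 18 clock genes tested, 1 was called higher and 2 lower. A wider count asks whether the 3 shock libraries do not overlap the 3 cold-ischemia libraries, which held for 11.1% of all genes tested in the higher direction and for 12.5% in the lower. Among the clock genes it held for 3 higher and 10 lower. In the 4 libraries the groups did not overlap for 23% of all genes in the higher direction and 24.3% in the lower. Every count without overlap in a list below is to be read beside these shares. The median log2 fold change of the clock list was -0.59, and -0.81 in the 4 libraries, against 0.00 for all genes tested in both.

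The promoters of 3 clock genes are shown because each carries the motif by which a different branch of the loop acts, with the motif in capitals. They are RefSeq windows of 300 bases on GRCm38.p6 (mm10), from 250 bases before to 50 after an annotated start, written 5′ to 3′ on the strand of the gene. Arntl is shown at chr7:113207261-113207560 on the plus strand with TAGGTCA, the element read by the REV-ERB repressors. Per3 is shown at chr4:151044616-151044915 on the minus strand with TTATGTAA, the D-box of DBP, HLF and TEF. Ciart is shown at chr3:95882179-95882478 on the minus strand with CACGTG, the E-box of BMAL1 and CLOCK.
Arntl: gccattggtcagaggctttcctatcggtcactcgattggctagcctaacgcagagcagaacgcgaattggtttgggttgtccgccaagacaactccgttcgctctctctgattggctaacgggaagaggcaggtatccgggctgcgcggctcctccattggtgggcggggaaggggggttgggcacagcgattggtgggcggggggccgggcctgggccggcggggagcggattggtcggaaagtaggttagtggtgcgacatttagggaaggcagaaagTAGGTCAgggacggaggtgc
Per3: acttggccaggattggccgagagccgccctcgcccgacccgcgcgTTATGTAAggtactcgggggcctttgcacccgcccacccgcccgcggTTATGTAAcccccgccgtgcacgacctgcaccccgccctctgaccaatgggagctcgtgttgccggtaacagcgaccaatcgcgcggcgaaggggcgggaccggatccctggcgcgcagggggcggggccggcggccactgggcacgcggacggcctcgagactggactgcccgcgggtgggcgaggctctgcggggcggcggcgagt
Ciart: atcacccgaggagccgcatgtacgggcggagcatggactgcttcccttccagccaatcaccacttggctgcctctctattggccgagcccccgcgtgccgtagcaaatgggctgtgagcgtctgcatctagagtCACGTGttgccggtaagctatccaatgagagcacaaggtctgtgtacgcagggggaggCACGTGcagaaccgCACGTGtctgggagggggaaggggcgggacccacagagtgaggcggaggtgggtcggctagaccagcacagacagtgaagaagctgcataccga

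The motifs were searched on both strands, as TAGGTCA, TTATGTAA and CACGTG. Of the 32851 promoter windows in the RefSeq table, 2.61% held TAGGTCA, 0.938% held TTATGTAA and 7.15% held CACGTG. A window was at hand for 15 of the 18 clock genes. TAGGTCA was found in 2 of them (Arntl and Nfil3), TTATGTAA in 1 (Per3) and CACGTG in 5 (Ciart, Bhlhe41, Cry1, Per1 and Tef). The motifs were chosen after the expression values were seen, and a match is a description of these letters only.

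The activators of the loop were all higher in shock grafts of the header. Values of shock grafts are given in the order XW721L, XW734L and XW749L, and those of cold-ischemia grafts in the order XW744L, XW745L and XW755L. Arntl stood at 45.9, 43.5 and 34.7 CPM against 5.62, 5.15 and 6.50 CPM. It rose 7.17-fold (log2 fold change 2.84 ± 0.18 (SE), adjusted p = 0.00334, and 2.94 ± 0.24 in the 4 libraries). In naive lungs Arntl was 3.62, 2.08 and 24.1 CPM, so 1 naive library lay apart from the other naive ones and above every cold-ischemia graft. Clock, the partner of BMAL1, was 136, 112 and 146 CPM against 69.5, 72.5 and 78.3 CPM (0.84 ± 0.14, adjusted p = 0.0781, 0.71 ± 0.19 in the 4 libraries). Npas2, which can take the place of CLOCK, was 13.6, 6.89 and 10.1 CPM against 2.74, 0.904 and 0.553 CPM (2.86 ± 0.55, adjusted p = 0.112, 3.81 ± 0.50 in the 4 libraries). Neither Clock nor Npas2 overlapped between the header groups, and neither passed the threshold.

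The output genes of the loop were lower. Dbp, a factor of the PAR bZIP family whose level follows the clock closely, was 2.12, 3.12 and 5.03 CPM against 33.8, 36.5 and 45.8 CPM. It fell by 3.49 ± 0.32 on the log2 scale (11.3-fold lower, adjusted p = 0.0116, and by 3.97 ± 0.31 in the 4 libraries). Naive lungs held Dbp at 100, 184 and 20.7 CPM, again with the third apart from the others. Hlf, a factor of the same family, was 10.6, 9.37 and 8.87 CPM against 29.7, 28.3 and 22.2 CPM. It fell by 1.48 ± 0.18 (adjusted p = 0.0412) and by 1.34 ± 0.25 in the 4 libraries. Tef, the remaining member of the family, was 137, 160 and 198 CPM against 219, 223 and 262 CPM and did not overlap between the groups (-0.51 ± 0.17, adjusted p = 0.237, -0.70 ± 0.20 in the 4 libraries). All 3 members of the family were thus lower in each shock library of the header than in any cold-ischemia library, with Tef short of the threshold.

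Several repressors of the loop were lower as well, though none was called. Per2 was 55.2, 46.1 and 63.2 CPM against 116, 93.0 and 104 CPM (-0.93 ± 0.16, adjusted p = 0.0781, -0.96 ± 0.20 in the 4 libraries). Per3 was 11.96, 16.7 and 12.8 CPM against 30.01, 26.7 and 27.7 CPM (-1.03 ± 0.18, adjusted p = 0.0781, -0.93 ± 0.25). Per1 was 183, 73.7 and 226 CPM against 280, 252 and 393 CPM (-0.94 ± 0.37, adjusted p = 0.295, -1.33 ± 0.44). In each of these 3 genes the lowest cold-ischemia library exceeded the highest shock library. Ciart, a repressor that binds the BMAL1 complex, was 1.54, 2.53 and 3.97 CPM against 8.82, 10.4 and 16.8 CPM (-2.16 ± 0.39, adjusted p = 0.0917, -2.74 ± 0.41). Nr1d2, which encodes REV-ERBβ, was 108.2, 96.2 and 155 CPM against 231, 257 and 249 CPM (-1.03 ± 0.19, adjusted p = 0.097, -1.31 ± 0.19). With Bhlhe41 and Cry2, further repressors, these made up the 10 genes that were lower without overlap. Nfil3, Cry1, Nr1d1 and Bhlhe40 overlapped between the header groups, with log2 fold changes from -0.27 to 0.10.

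The 2 disputed libraries differed at the clock genes in the way the header has it. XW749L stood at 0.88 of the way from the cold-ischemia to the shock mean for Arntl and at 0.76 for Dbp, and XW744L at -0.01 and 0.07. Both genes were called with these 2 libraries in their header groups, so these positions are no separate support for the header. In the 4 libraries alone, 4 clock genes were higher and 12 lower without overlap, against 23% and 24.3% of all genes. That choice did not use the 2 disputed libraries. XW749L was nearer to the shock mean in 11 of these 16 genes and XW744L in 3. Over all 7172 genes without overlap in the 4 libraries, XW749L was nearer in 3470 and XW744L in 1918. XW744L thus lay nearer to the cold-ischemia mean at most such genes, not at clock genes in particular. Counts of this kind below are to be read beside these. With the grouping of the titles Arntl had a log2 fold change of 1.03 and Dbp of -1.16, and neither was called. The reads of Dbp can include some of Sphk2, a gene on the opposite strand that overlaps it by 689 bases, and the gene body of Per3 lies within the span of Camta1 on the same strand.

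**Figure D3:**
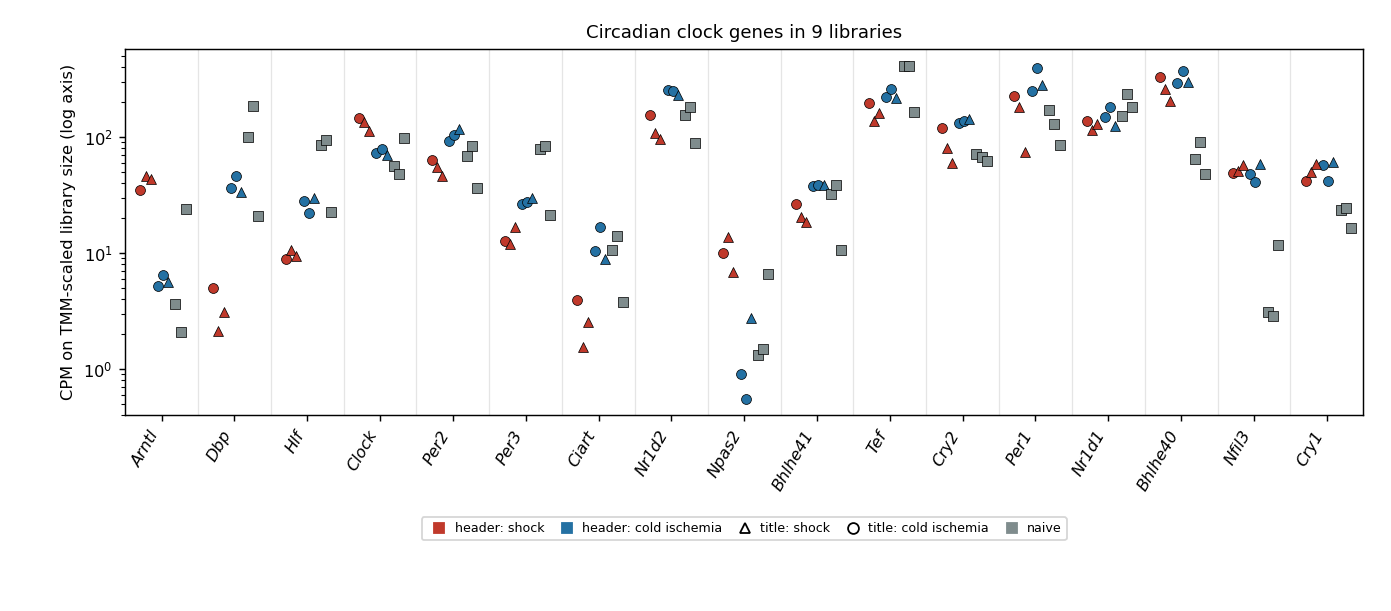
Levels (y axis, CPM, log scale) of 17 of the 18 clock genes tested (x axis, ordered by p) in 9 libraries, 1 point per library. Colour gives the header group and shape the title group, and from Arntl to Per1 the red shock points do not overlap the blue cold-ischemia points, while the third naive point often lies apart from the other naive ones.

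Outside the clock list 7 genes were called higher. Sele, or E-selectin, is the endothelial receptor that first slows neutrophils on the vessel wall. It stood at 362, 510 and 361 CPM in shock grafts, 134, 163 and 121 CPM in cold-ischemia grafts and 1.18 to 1.36 CPM in naive lungs. Sele rose 2.95-fold (1.56 ± 0.19, adjusted p = 0.045), and by 1.62 ± 0.27 in the 4 libraries. The lowest shock graft was above the highest cold-ischemia graft, and all 6 grafts were far above the naive lungs.

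Lpl, the lipase that frees fatty acids from circulating triglycerides, was 838, 802 and 591 CPM against 250, 244 and 266 CPM. It rose 2.93-fold (1.55 ± 0.17, adjusted p = 0.0242, 1.68 ± 0.21 in the 4 libraries). Naive lungs held 223 to 282 CPM of Lpl, so the cold-ischemia grafts lay in the naive range and the shock grafts above it. Pla1a, a phospholipase for phosphatidylserine, was 14.9, 16.2 and 19.0 CPM against 3.96, 4.57 and 4.75 CPM (1.91 ± 0.19, adjusted p = 0.0181, 1.74 ± 0.27 in the 4 libraries). Akr1c14, an aldo-keto reductase that acts on steroids, was 272, 328 and 294 CPM against 85.9, 80.8 and 101 CPM (1.74 ± 0.15, adjusted p = 0.0116, 1.72 ± 0.22). Serpina3n, an acute-phase inhibitor of serine proteases, was 525, 605 and 796 CPM against 210, 249 and 249 CPM (1.44 ± 0.19, adjusted p = 0.0471, 1.18 ± 0.21). For Pla1a and Serpina3n the disputed library XW749L had the highest value of all, beyond the mean of the undisputed shock grafts, with positions of 1.17 and 1.42. Akr1c14 and Serpina3n belong to families of near-identical genes, and no source used here says how the counting parted their reads.

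Lamc3, a laminin chain of basement membranes, rose to 67.7, 48.4 and 53.6 CPM from 23.03, 23.01 and 24.3 CPM (1.27 ± 0.16, adjusted p = 0.0471, 1.30 ± 0.24 in the 4 libraries). Dtx4, a ubiquitin ligase of the Deltex family linked to Notch, rose to 55.2, 64.0 and 52.7 CPM from 27.1, 26.7 and 29.2 CPM (1.05 ± 0.14, adjusted p = 0.0471, 1.09 ± 0.20). The 3 cold-ischemia libraries differed little from each other in both genes.

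Among the falls outside the clock list was that of Tmem252, a small membrane protein. It was 58.7, 59.9 and 89.1 CPM in shock grafts and 425, 441 and 316 CPM in cold-ischemia grafts. Tmem252 fell by 2.51 ± 0.22 (5.70-fold lower, adjusted p = 0.0116), and by 2.68 ± 0.24 in the 4 libraries. Its naive level was 15.6 to 33.3 CPM, so both graft groups were above naive and the cold-ischemia grafts the more so. Pmaip1, which encodes the pro-apoptotic protein NOXA, showed the same order, with 45.8, 31.7 and 42.6 CPM against 94.6, 106.5 and 93.1 CPM and 10.01 to 16.2 CPM in naive lungs (-1.29 ± 0.17, adjusted p = 0.0471, -1.36 ± 0.24 in the 4 libraries).

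For the remaining falls, the cold-ischemia grafts lay nearer to the naive level. Angptl2, a secreted angiopoietin-like protein, was 37.2, 41.1 and 49.8 CPM against 133, 117 and 120 CPM (-1.53 ± 0.15, adjusted p = 0.0165, -1.60 ± 0.19 in the 4 libraries), with 108.2 to 195 CPM in naive lungs. Ephx1, the microsomal epoxide hydrolase, was 79.5, 67.9 and 78.6 CPM against 169, 181 and 162 CPM (-1.18 ± 0.13, adjusted p = 0.0242, -1.22 ± 0.19). Naive lungs held 129 to 277 CPM of Ephx1. Ion channel genes were among the falls. Kcnh2, a voltage-gated potassium channel, was 4.61, 4.21 and 4.99 CPM against 14.0, 11.4 and 12.6 CPM (-1.46 ± 0.19, adjusted p = 0.0471, -1.44 ± 0.28). Scn3b, a beta subunit of sodium channels, was 15.5, 13.6 and 18.6 CPM against 39.8, 46.9 and 41.2 CPM (-1.42 ± 0.17, adjusted p = 0.0393, -1.60 ± 0.22). The gene called last by level was Atp6v1b1, a subunit of the proton pump, at 0.297 to 0.415 CPM against 2.26 to 3.87 CPM (-2.91 ± 0.38, adjusted p = 0.0471, -2.71 ± 0.49). It lies under the minimum level set for named genes and is given so that all 17 are named. Angptl2 lies within the span of Ralgps1, a gene on the opposite strand, so its reads may hold some of that gene.

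**Figure D4:**
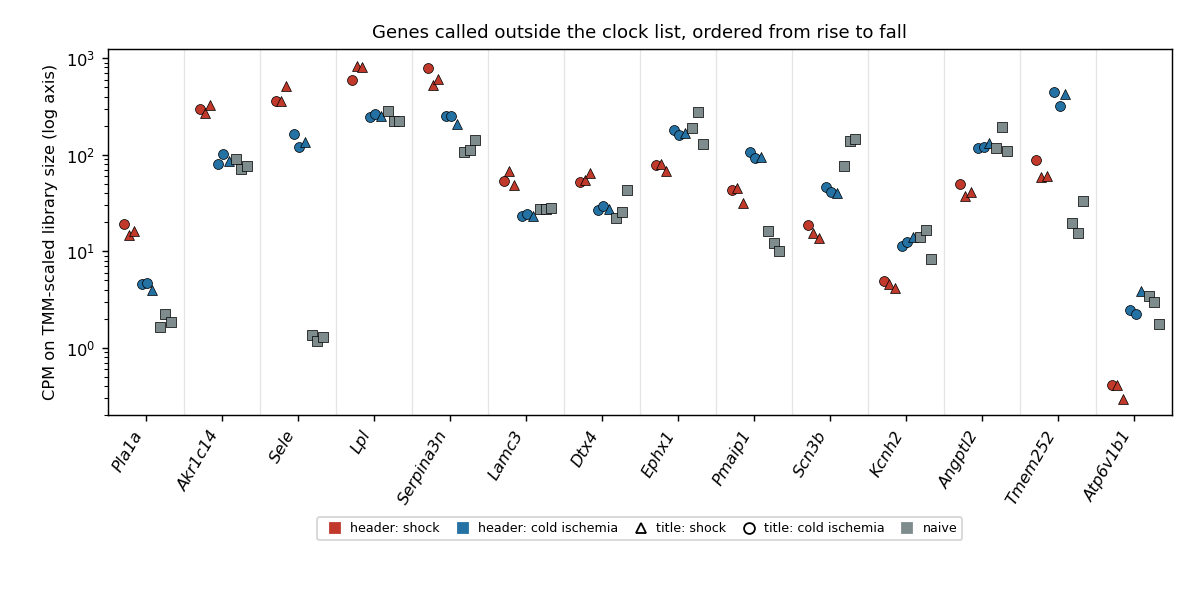
Levels (y axis, CPM, log scale) of the 14 called genes outside the clock list (x axis, from the largest rise to the largest fall), 1 point per library, coloured by header group and shaped by title group. In every gene the 3 red shock points lie to 1 side of the 3 blue cold-ischemia points, and the blue triangle, XW744L, lies with the blue circles. These genes were called with the same header groups.

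Genes that present antigen on MHC class II were lower in the shock grafts as a group, and none was called. Dendritic cells, macrophages and B cells carry these molecules, which show peptides to helper T cells and which differ between donor and recipient strain. Of 11 genes tested, 10 were lower without overlap between the header groups and none was higher, against 12.5% and 11.1% of all genes. The median log2 fold change was -1.23 with 6 libraries and -1.45 with 4. DESeq2 called 8 of the 11 lower with 6 libraries, against 2.31% of all genes, and 6 with 4 libraries, against 1.5%. The summed level of the list was 982 to 1603 CPM in shock grafts, 2487 to 4091 CPM in cold-ischemia grafts and 2202 to 2246 CPM in naive lungs.

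The promoters of H2-Aa and H2-Eb1 are shown because class II genes are known to depend on a short box near the start, GATTGG, the Y box bound by NF-Y, here in capitals on either strand. The windows are chr17:34287774-34288073 on the minus strand for H2-Aa, the alpha chain of I-A, and chr17:34305617-34305916 on the plus strand for H2-Eb1, the beta chain of I-E.
H2-Aa: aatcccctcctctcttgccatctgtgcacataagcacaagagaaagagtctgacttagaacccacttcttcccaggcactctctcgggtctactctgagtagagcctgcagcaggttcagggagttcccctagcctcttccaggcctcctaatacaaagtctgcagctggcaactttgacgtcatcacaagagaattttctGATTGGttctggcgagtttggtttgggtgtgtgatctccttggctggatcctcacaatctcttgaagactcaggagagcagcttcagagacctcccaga
H2-Eb1: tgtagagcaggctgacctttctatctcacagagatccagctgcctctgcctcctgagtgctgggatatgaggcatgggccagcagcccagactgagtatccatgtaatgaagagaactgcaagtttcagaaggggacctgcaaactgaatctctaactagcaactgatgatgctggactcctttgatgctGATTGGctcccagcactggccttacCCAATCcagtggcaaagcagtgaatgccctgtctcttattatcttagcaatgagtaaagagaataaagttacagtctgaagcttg

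GATTGG, searched on both strands, was in 16.1% of all promoter windows. Of the 8 class II list members with a window it was found in 7, all but Ctss. It was also found in 11 of the 15 clock genes with a window, so the box is not particular to the class II genes.

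H2-Eb1 had the smallest adjusted p of the list. It was 133, 83.7 and 137 CPM in shock grafts and 296, 407 and 267 CPM in cold-ischemia grafts (-1.46 ± 0.24, adjusted p = 0.0769, -1.64 ± 0.32 in the 4 libraries). H2-Aa was 169, 96.4 and 178 CPM against 412, 579 and 360 CPM (-1.61 ± 0.27, adjusted p = 0.0781, -1.82 ± 0.36). H2-Ab1, the partner chain of H2-Aa, was 173, 95.6 and 190 CPM against 376, 526 and 314 CPM (-1.41 ± 0.29, adjusted p = 0.129, -1.64 ± 0.37). The order of libraries was alike in all 3 genes, with XW734L lowest and XW745L highest. Cd74, the invariant chain that guards the groove until loading, was 828, 454 and 876 CPM against 1567, 2218 and 1277 CPM (-1.23 ± 0.30, adjusted p = 0.166, -1.45 ± 0.40). H2-DMa and H2-DMb1, which encode the dimer that loads peptides, had log2 fold changes of -1.31 ± 0.31 and -1.54 ± 0.34 (adjusted p = 0.161 and 0.154), and -1.52 ± 0.42 and -1.77 ± 0.45 in the 4 libraries. Ciita, the coactivator that switches the class II genes on, was 9.30, 4.81 and 7.68 CPM against 16.8, 19.4 and 10.7 CPM (-1.10 ± 0.31, adjusted p = 0.197, -1.09 ± 0.43). The member that overlapped was Ctss, a protease that cuts the invariant chain, with 0.09 ± 0.17 (0.11 ± 0.22 in the 4 libraries). Ciita overlaps Dexi, a gene on the opposite strand.

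Both disputed libraries lay on the side of their header group for these genes. Among the 10 genes that did not overlap in the 4 libraries, XW749L was nearer to the shock mean in 9 and XW744L in 0. Over all 7172 such genes the counts were 3470 and 1918. With the grouping of the titles the log2 fold change of H2-Aa was -0.72 and that of Cd74 was -0.62. Markers of dendritic cells, which carry class II, were lower as well, and their part in the result was not tested. Of 14 dendritic cell markers 8 were lower without overlap and none was higher, against 12.5% and 11.1% of all genes, with a median of -0.62. In the 4 libraries 10 were lower and 1 higher, against 24.3% and 23%, with a median of -0.92. The summed level of the dendritic cell list was 397 to 423 CPM in shock grafts, 495 to 634 CPM in cold-ischemia grafts and 263 to 304 CPM in naive lungs. Most of the gap between the graft groups in this sum lay in the chemokines Ccl22 and Ccl17, which macrophages make as well. Of 10 B cell markers 2 were lower without overlap and none was higher, with a median of -0.26 and a summed level of 92.04 to 103 CPM against 110 to 141 CPM. The B cell counts in the 4 libraries were 2 lower and 2 higher, near the 24.3% and 23% of all genes, with a median of 0.01. No defining marker of either cell type was called.

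The dendritic cell list includes chemokines that mature dendritic cells and macrophages make to draw T cells. Ccl22 was 54.6, 47.6 and 81.2 CPM against 135, 184 and 148 CPM (-1.35 ± 0.22, adjusted p = 0.0781, -1.70 ± 0.21 in the 4 libraries). Ccl17, which shares the receptor CCR4 with Ccl22, was 12.8, 27.0 and 12.1 CPM against 39.6, 43.2 and 30 CPM (-1.12 ± 0.32, adjusted p = 0.202, -0.88 ± 0.39). Both were lower in naive lungs than in any graft. Siglech, a marker of plasmacytoid dendritic cells, was 2.68 to 3.57 CPM against 4.95 to 6.41 CPM (-0.89 ± 0.23, adjusted p = 0.184, -0.96 ± 0.34). Of 14 T cell markers 3 were lower without overlap (5 in the 4 libraries), against 12.5% of all genes (24.3%). Among the 3 was Trbc2, a constant region of the T cell receptor, at 5.55 to 6.46 CPM against 7.87 to 11.2 CPM (-0.67 ± 0.21, adjusted p = 0.224, -0.73 ± 0.31).

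Macrophage genes were more often higher in the header grouping, and none was called. Of 20 markers of monocytes and interstitial macrophages 7 were higher without overlap and 1 lower, against 11.1% and 12.5% of all genes. In the 4 libraries 10 were higher and 2 lower, against 23% and 24.3%, and the median was 0.42 in both. The summed level of the list gave no such order, with 6920 to 9430 CPM in shock grafts, 7286 to 9318 CPM in cold-ischemia grafts and 7331 to 8267 CPM in naive lungs. Mrc1, the mannose receptor CD206 of resident macrophages, was 131, 116 and 134 CPM against 81.3, 82.8 and 84.7 CPM (0.62 ± 0.12, adjusted p = 0.117, 0.56 ± 0.18 in the 4 libraries). Cd163, the scavenger receptor for haemoglobin, was 13.8, 14.3 and 20.2 CPM against 7.24, 9.18 and 6.41 CPM (1.08 ± 0.23, adjusted p = 0.138, 0.85 ± 0.29). Among genes linked to resolution or alternative activation of macrophages, 4 of 19 were higher without overlap and 2 lower (6 and 4 in the 4 libraries). F13a1, a clotting factor chain made by macrophages, led it at 63.8, 50.5 and 65.8 CPM against 31.7, 33.0 and 29.0 CPM (0.94 ± 0.15, adjusted p = 0.0747, 0.88 ± 0.22).

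Mrc1, Cd163 and F13a1 had their highest value of the 6 libraries in XW749L. Its position was 1.22 for Mrc1, 1.60 for Cd163 and 1.24 for F13a1. Under the title grouping their log2 fold changes were 0.12, -0.02 and 0.19. Retnla, a secreted protein of alternatively activated macrophages, showed the same order, at 32.9, 45.7 and 66.4 CPM against 12.96, 21.3 and 29.2 CPM (1.19 ± 0.34, adjusted p = 0.202). It stood at 0.64 ± 0.27 in the 4 libraries and at -0.35 under the titles.

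Genes of monocytes fresh from blood had another order, with XW749L below the undisputed shock grafts. Ly6c2, the marker of inflammatory monocytes, was 27.4, 41.9 and 19.9 CPM against 13.1, 12.9 and 14.7 CPM (1.13 ± 0.26, adjusted p = 0.161, 1.33 ± 0.28 in the 4 libraries). Chil3, a chitinase-like protein of monocytes and alveolar macrophages, was 1263, 1236 and 764 CPM against 543, 549 and 754 CPM (0.82 ± 0.23, adjusted p = 0.202, 0.94 ± 0.25). Ccr2, the receptor that brings monocytes out to inflamed tissue, was 17.6, 20.4 and 13.4 CPM against 11.97, 13.4 and 8.99 CPM (0.58 ± 0.23, adjusted p = 0.289, 0.76 ± 0.29). Naive lungs held 32.4, 31.2 and 20.35 CPM of Ccr2, so every graft but XW734L lay below the naive range, and XW734L stood at its lower end. XW749L exceeded the highest cold-ischemia graft only narrowly in Chil3 and Ccr2. Ccl2, the ligand of CCR2, was 298, 399 and 186 CPM against 163, 233 and 152 CPM and overlapped in the header grouping (0.69 ± 0.28, adjusted p = 0.309) and not in the 4 libraries (0.86 ± 0.28).

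Other macrophage genes overlapped or were close. Cd68, a lysosomal protein of macrophages, was 50.7, 69.0 and 45.8 CPM against 31.9, 38.7 and 41.0 CPM (0.57 ± 0.19, adjusted p = 0.241, 0.59 ± 0.23). Emr1, which encodes F4/80, was 40.3, 40.8 and 34.3 CPM against 22, 63.9 and 25.3 CPM (0.05 ± 0.37, adjusted p = 0.96), with -0.14 ± 0.41 in the 4 libraries. Its wide spread came from XW745L, the highest of the 6. Arg1, arginase of alternatively activated macrophages, was 4.20, 3.97 and 1.27 CPM against 1.53, 2.17 and 1.43 CPM (0.87 ± 0.46, adjusted p = 0.398, 1.18 ± 0.39). XW749L lay below all 3 cold-ischemia grafts in this gene. Of 17 alveolar macrophage markers 3 were higher and 3 lower without overlap, against 11.1% and 12.5% of all genes. In the 4 libraries 4 were higher and 6 lower, against 23% and 24.3%. Olr1, a receptor for oxidised lipoprotein in that list, was 78.9, 133 and 59.8 CPM against 41.4, 45.7 and 37.6 CPM (1.12 ± 0.27, adjusted p = 0.169, 1.35 ± 0.29).

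**Figure D5:**
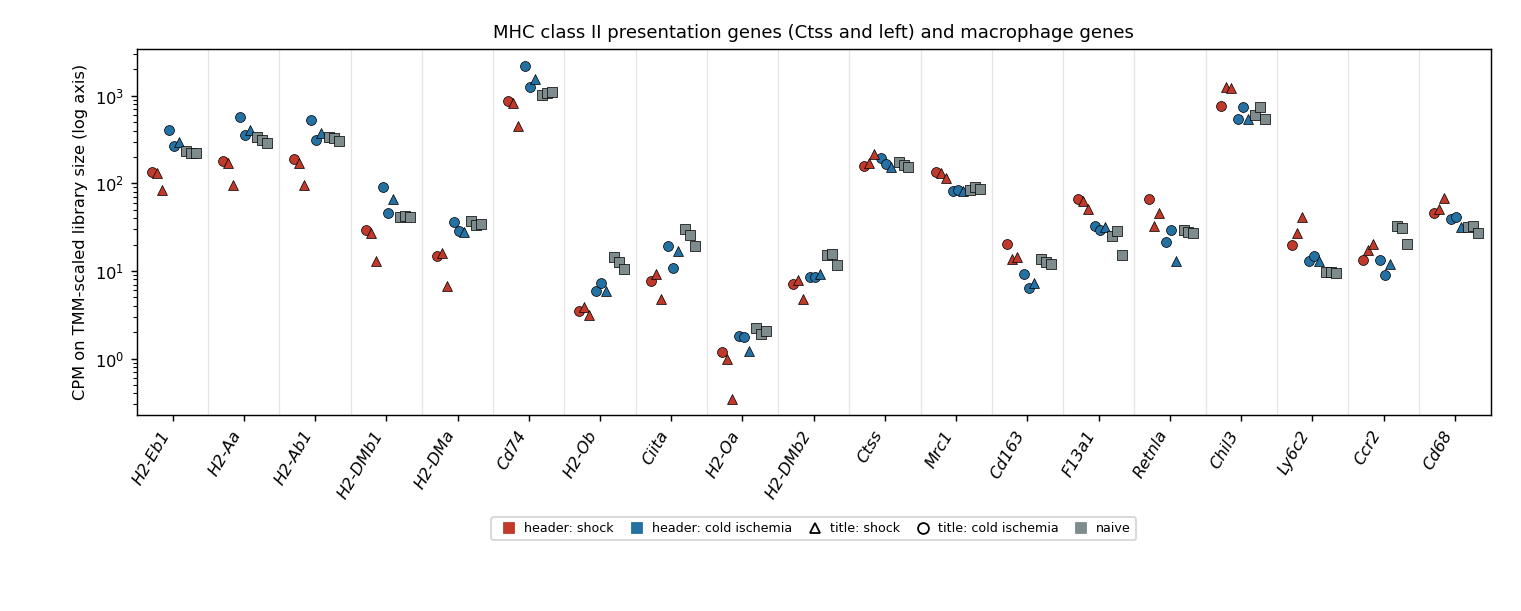
Levels (y axis, CPM, log scale) of the 11 MHC class II presentation genes (x axis, from H2-Eb1 to Ctss, ordered by p) and 8 macrophage genes (from Mrc1 to Cd68) in 9 libraries, coloured by header group and shaped by title group. In 10 class II genes the red shock points lie below the blue cold-ischemia points, and in Mrc1, Cd163, F13a1 and Retnla the highest point of all is the red circle, XW749L.

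The cytokines most often followed after reperfusion did not share a direction. Il1b was 586, 387 and 295 CPM against 390, 403 and 453 CPM (0.02 ± 0.24, adjusted p = 0.973, 0.18 ± 0.26 in the 4 libraries). Il6 was 285, 305 and 152 CPM against 283, 383 and 110 CPM (-0.07 ± 0.43, adjusted p = 0.956), with 0.26 ± 0.52 in the 4 libraries. The groups overlapped in both genes, and all grafts were far above the naive level of at most 7.59 CPM. Tnf was 44.7, 56.9 and 43.5 CPM against 59.3, 78.2 and 118 CPM, lower without overlap (-0.82 ± 0.25, adjusted p = 0.217, -0.95 ± 0.26). Il12b, the shared subunit of interleukins 12 and 23, was 0.789, 0.991 and 1.64 CPM against 2.92, 6.28 and 2.72 CPM (-1.80 ± 0.44, adjusted p = 0.169, -2.34 ± 0.53). Lif, a cytokine of the interleukin 6 family, was 146, 335 and 119 CPM against 71.2, 108.9 and 63.4 CPM (1.30 ± 0.39, adjusted p = 0.214, 1.48 ± 0.44). Of 18 cytokines 4 were lower and 1 higher without overlap (5 and 6 in the 4 libraries), and of 27 chemokines 6 were lower and 1 higher (7 and 6). Under other scalings 4 to 6 chemokines were lower and 1 or 2 higher in the header grouping. The shares of all genes were 12.5% lower and 11.1% higher (24.3% and 23% in the 4 libraries). The chemokine that was higher was Cxcl13, which attracts B cells, at 8.64, 22.9 and 6.42 CPM against 2.65, 5.15 and 2.81 CPM (1.83 ± 0.50, adjusted p = 0.195, 1.98 ± 0.54). Ccl21a, made by lymphatic vessels to guide dendritic and T cells, was 24.4, 9.67 and 32.6 CPM against 49.4, 55.3 and 72.0 CPM (-1.40 ± 0.39, adjusted p = 0.195, -1.90 ± 0.43). Ccl21a has near-identical copies in the mouse genome, so its counts are uncertain.

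Markers of neutrophils gave different counts in the 6 and the 4 libraries. None of 16 was free of overlap in the header grouping (1 was under each of 3 other scalings). In the 4 libraries 11 were higher without overlap, against 23% of all genes. The median was 0.56 with 6 libraries, 0.88 with 4 and 0.73 with the grouping of the titles. By edgeR's test 9 of the 16 had an unadjusted p under 0.05 with the titles, against 4.32% of all genes. In the header grouping 4 were higher and 0 lower at that limit, against 15.3% in both directions. Cxcr2, the receptor by which neutrophils follow chemokines, was 152, 179 and 57.9 CPM against 66.0, 51.4 and 64.0 CPM (1.10 ± 0.36, adjusted p = 0.237, 1.52 ± 0.21 in the 4 libraries). Fpr1, a receptor for bacterial and mitochondrial formyl peptides, was 108.7, 141 and 68.0 CPM against 64.8, 49.8 and 68.4 CPM (0.79 ± 0.26, adjusted p = 0.234, 1.08 ± 0.24). Mmp8, the neutrophil collagenase, was 285, 255 and 147 CPM against 135, 94.3 and 172 CPM (0.77 ± 0.29, adjusted p = 0.273, 1.02 ± 0.31). In all 3 genes XW721L and XW734L were high and XW749L lay among the cold-ischemia grafts. Among the 11 genes XW749L was nearer to the shock mean in none and XW744L in 1. The summed level of the list was 1797 to 3932 CPM in shock grafts of the header, with XW749L the lowest, 1548 to 2782 CPM in cold-ischemia grafts and 146 to 181 CPM in naive lungs.

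Genes induced by type I interferon likewise parted the 4 libraries more often than the 6. Of 30 tested, 1 was higher and 1 lower without overlap in the header grouping, against 11.1% and 12.5% of all genes. In the 4 libraries 19 were higher and 1 lower, against 23% and 24.3%. The median was 0.49 with 6 libraries, 0.89 with 4 and 0.82 with the grouping of the titles. By edgeR's test 16 of the 30 had an unadjusted p under 0.05 with the titles, against 4.32% of all genes. In the header grouping 7 were higher and 1 lower at that limit, against 15.3% in both directions. Oas3, a sensor of viral RNA, was 24.0, 43.0 and 12.5 CPM against 12.2, 6.15 and 11.4 CPM (1.42 ± 0.44, adjusted p = 0.222, 1.93 ± 0.41 in the 4 libraries). Oas1a was 17.9, 22.9 and 10.2 CPM against 10.5, 10.1 and 6.04 CPM (0.93 ± 0.33, adjusted p = 0.259, 1.33 ± 0.33). Of the 20 genes that did not overlap in the 4 libraries, XW749L was nearer to the shock mean in 1 and XW744L in 6. At genes without overlap in the 4 libraries, XW749L was thus nearer to the shock mean in 11 of 16 clock genes and 9 of 10 class II genes, but in 0 of 11 neutrophil markers and 1 of 20 interferon-induced genes. XW744L was nearer to it in 3, 0, 1 and 6 of the same genes. Over all 7172 such genes the counts were 3470 for XW749L and 1918 for XW744L. These lists are examples among 55, and others differed again. XW749L was nearer to the shock mean in 1 of 10 fibroblast markers and 3 of 10 markers of smooth muscle and pericytes.

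Vessel genes without overlap were mostly lower. Of 22 vasoactive and angiogenic factors 7 were lower without overlap and none was higher, against 12.5% and 11.1% of all genes, with a median of -0.22. In the 4 libraries 8 were lower and 3 higher, against 24.3% and 23%, with a median of -0.40. Edn1, the vasoconstrictor endothelin 1, was 34.6, 37.4 and 53.5 CPM against 108.6, 96.0 and 92.9 CPM (-1.24 ± 0.19, adjusted p = 0.0639, -1.39 ± 0.19). Its naive level was 41.5 to 49.3 CPM, so the cold-ischemia grafts lay above naive and the undisputed shock grafts below. Apln, the ligand apelin, was 4.78, 14.6 and 11.5 CPM against 35.8, 38.2 and 34.7 CPM (-1.82 ± 0.35, adjusted p = 0.117, -1.91 ± 0.49). Its receptor Aplnr was 1.33, 1.98 and 1.84 CPM against 14.7, 12.02 and 4.56 CPM (-2.60 ± 0.44, adjusted p = 0.0781, -2.33 ± 0.54), with 86.9 to 101 CPM in naive lungs. Icam2, an adhesion molecule of resting endothelium, was 68.0, 51.6 and 66.7 CPM against 106.7, 111 and 127 CPM (-0.89 ± 0.15, adjusted p = 0.0781, -0.99 ± 0.21). Of 20 endothelial markers 3 were lower without overlap (6 in the 4 libraries), not far above the 12.5% of all genes (24.3%). Their summed level was 6027 to 8420 CPM in shock grafts and 7776 to 8655 CPM in cold-ischemia grafts, and XW734L was the lowest.

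F10, coagulation factor X, was 47.4, 102 and 42.0 CPM against 30.6, 31.3 and 29.1 CPM (1.07 ± 0.32, adjusted p = 0.21, 1.31 ± 0.36). Ptges, which makes prostaglandin E2, was 435, 761 and 345 CPM against 256, 265 and 136 CPM (1.23 ± 0.34, adjusted p = 0.201, 1.58 ± 0.40). In both genes XW749L was the lowest shock graft of the header and still above every cold-ischemia graft. Of 17 genes of coagulation and fibrinolysis 2 were higher and 1 lower without overlap, and in the 4 libraries 5 and 4. The shares of genes that were higher are near the 11.1% and 23% of all genes.

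Markers of the cells that hold the lung's frame were mostly lower. Of 15 fibroblast markers 5 were lower without overlap and none higher, with a median of -0.62 (-1.12 in the 4 libraries, where 10 were lower without overlap). Of 11 markers of smooth muscle and pericytes 6 were lower, with -0.58 (-0.96, and 10 lower). The share of all genes that were lower without overlap was 12.5%, and 24.3% in the 4 libraries. Tagln, an actin-binding protein of smooth muscle, was 76.4, 67.1 and 128 CPM against 182, 200 and 192 CPM (-1.08 ± 0.23, adjusted p = 0.143, -1.45 ± 0.19). Higd1b, a pericyte gene, was 3.16, 3.87 and 4.62 CPM against 7.92, 7.32 and 9.12 CPM (-1.06 ± 0.23, adjusted p = 0.14, -1.23 ± 0.32). Dpt, or dermatopontin of fibroblasts, was 85.3, 58.7 and 120 CPM against 151, 172 and 174 CPM (-0.91 ± 0.24, adjusted p = 0.184, -1.26 ± 0.23). In Tagln and Dpt XW749L lay between the undisputed groups, with positions of 0.43 and 0.41.

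Matrix genes lay on both sides. Tnc, a matrix protein that appears at wounds, was 170, 285 and 258 CPM against 63.8, 94.2 and 68.9 CPM (1.65 ± 0.23, adjusted p = 0.0597, 1.48 ± 0.30 in the 4 libraries). Ctgf, a target of YAP and TGF-β signals in matrix-making cells, was 127, 91.2 and 122 CPM against 229, 278 and 336 CPM (-1.31 ± 0.19, adjusted p = 0.0639, -1.49 ± 0.24). Postn, or periostin, was 196, 97.8 and 259 CPM against 536, 485 and 424 CPM (-1.39 ± 0.32, adjusted p = 0.154, -1.63 ± 0.35). Of 23 collagen and matrix genes 3 were higher and 3 lower without overlap, against 11.1% and 12.5% of all genes. In the 4 libraries 3 were higher and 14 lower, against 23% and 24.3%. Of 16 matrix proteases and inhibitors 6 were higher and 3 lower, with a median of 0.64 (in the 4 libraries 11 and 4, with 0.61). Mmp19, a basement membrane protease, was 220, 209 and 165 CPM against 91.6, 127 and 64.7 CPM (1.07 ± 0.24, adjusted p = 0.154, 1.16 ± 0.32). Adamts1, which cleaves proteoglycans, was 365, 248 and 492 CPM against 771, 679 and 737 CPM (-0.99 ± 0.24, adjusted p = 0.165, -1.21 ± 0.26).

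Epithelial genes differed by cell type. Igfbp2, a binding protein of insulin-like growth factors in alveolar type 1 cells, was 56.8, 81.9 and 129 CPM against 284, 346 and 373 CPM (-1.91 ± 0.28, adjusted p = 0.0639, -2.37 ± 0.25 in the 4 libraries). Cldn18, a tight-junction protein of alveoli, was 385, 403 and 705 CPM against 778, 773 and 826 CPM (-0.67 ± 0.24, adjusted p = 0.259, -1.02 ± 0.21). XW749L was near the cold-ischemia level in Cldn18. Of 12 type 1 markers 4 were lower without overlap (7 in the 4 libraries), and of 13 type 2 markers 1 (2). Of 11 ciliated cell markers 4 were lower and 0 higher in both groupings, with a median of -0.07 (-0.32). The share of all genes was 12.5% (24.3%). Of 12 markers of club and secretory cells 4 were lower without overlap in both groupings. DESeq2 called these 4 with 6 libraries and 3 with 4, against 2.31% and 1.5% of all genes. Lypd2, a secretory cell gene, was 4.20, 8.62 and 6.46 CPM against 23.1, 19.6 and 17.4 CPM (-1.64 ± 0.27, adjusted p = 0.0781, -1.53 ± 0.38). Cyp2f2, the club cell cytochrome, was 604, 572 and 783 CPM against 1010, 1291 and 1240 CPM (-0.85 ± 0.18, adjusted p = 0.138, -1.11 ± 0.22). The summed level of the club list overlapped, at 14770 to 29200 CPM against 23970 to 28220 CPM.

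Ion transporters that move fluid across the epithelium had 4 of 14 genes higher and 2 lower without overlap in both groupings. The shares of all genes were 11.1% higher and 12.5% lower (23% and 24.3% in the 4 libraries). Slc26a9, an airway chloride transporter, was 110, 115 and 103 CPM against 67.6, 61.2 and 55.9 CPM (0.83 ± 0.13, adjusted p = 0.066, 0.94 ± 0.18). Cftr, the chloride channel of cystic fibrosis, was 30.9, 44.4 and 24.1 CPM against 16.2, 18.3 and 16.2 CPM (0.97 ± 0.23, adjusted p = 0.161, 1.13 ± 0.26). Slc12a2, which loads epithelia with chloride, was 338, 359 and 332 CPM against 242, 254 and 229 CPM (0.50 ± 0.12, adjusted p = 0.169, 0.53 ± 0.20). These 3 chloride pathways stood above the naive level of 31.0 to 38.7, 10.4 to 17.7 and 137 to 173 CPM in each shock graft. Slc26a9 and Slc12a2 were above naive in each cold-ischemia graft too, while Cftr in those grafts lay within or just above the naive range. Sgk1, a kinase that keeps sodium channels at the surface and answers to glucocorticoids, was 310, 307 and 325 CPM against 451, 435 and 453 CPM (-0.51 ± 0.12, adjusted p = 0.165, -0.53 ± 0.20). Tsc22d3, or GILZ, another glucocorticoid target, was 119, 98.1 and 132 CPM against 197, 151 and 202 CPM (-0.66 ± 0.17, adjusted p = 0.181, -0.70 ± 0.23). Of 17 glucocorticoid-responsive genes 5 were lower without overlap and none higher, and in the 4 libraries 6 and 2.

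Among 15 lipid genes 2 were higher and 2 lower without overlap (3 and 4 in the 4 libraries), near the 11.1% and 12.5% of all genes (23% and 24.3%). Gpihbp1, which anchors the lipase LPL to capillaries, was 37.1, 32.1 and 37.7 CPM against 76.6, 63.6 and 93.8 CPM (-1.13 ± 0.17, adjusted p = 0.0639, -1.18 ± 0.25 in the 4 libraries), while Lpl was among the called rises. Plin2, a coat protein of lipid droplets, was 235, 405 and 213 CPM against 139, 146 and 180 CPM (0.87 ± 0.25, adjusted p = 0.202, 0.97 ± 0.30). Of 17 acute-phase genes Serpina3n alone was higher and 2 were lower without overlap, and in the 4 libraries 5 and 3. Itih4, a plasma protease inhibitor, was 32.7, 25.9 and 56.3 CPM against 70.5, 92.9 and 93.7 CPM (-1.16 ± 0.28, adjusted p = 0.165, -1.67 ± 0.21). Saa3, the acute-phase amyloid of macrophages and epithelium, was 45.7, 399 and 20.9 CPM against 28.5, 23.8 and 17.7 CPM, with a log2 fold change of 2.73 ± 0.96 (adjusted p = 0.254, 3.42 ± 0.90 in the 4 libraries). XW734L was far above the other 5 libraries.

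Markers of heart muscle, mesothelium and red cells were counted in the same way, and their part in the other results was not tested. The shares of all genes without overlap were 11.1% higher and 12.5% lower (23% and 24.3% in the 4 libraries). Of 9 markers of the heart muscle that sheathes pulmonary veins 2 were lower without overlap in both groupings, with a median of -1.88 (-1.16 in the 4 libraries) and a summed level of 143 to 407 CPM against 115 to 1260 CPM. Actc1, cardiac actin, was 33.7, 27.2 and 40.5 CPM against 230, 201 and 46.9 CPM (-2.24 ± 0.51, adjusted p = 0.154, -2.03 ± 0.61). Myl7, an atrial myosin light chain, was 2.87, 16.5 and 4.50 CPM against 76.3, 64.9 and 4.52 CPM (-2.62 ± 0.97, adjusted p = 0.27, -1.85 ± 1.19), with XW744L and XW745L high and XW755L as low as the shock grafts. Msln, a marker of the mesothelium that covers the lung, was 23.3, 23.6 and 44.8 CPM against 4.95, 1.99 and 7.42 CPM (2.68 ± 0.47, adjusted p = 0.0834, 2.32 ± 0.56), all below the naive 69.5 to 95.1 CPM. Of 7 mesothelial markers 1 was higher and 1 lower without overlap (2 and 2 in the 4 libraries). The summed level of the mesothelial list was 464 to 568 CPM against 464 to 513 CPM. Of 10 erythroid markers 3 were lower without overlap, and in the 4 libraries 3 were lower and 4 higher.

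Counts without overlap in further lists are given for the header groups, with those of the 4 libraries in brackets. The shares of all genes to set beside them are 11.1% higher and 12.5% lower (23% and 24.3%). Of 15 heat shock chaperones 3 were higher and 2 lower (7 and 2), and of 14 targets of NRF2, the regulator of antioxidant genes, 3 and 1 (3 and 1). Of 17 genes of the unfolded protein response none was free of overlap (1 and 5), nor was any of 17 genes of cholesterol synthesis and uptake (1 and 3). Of 17 NF-κB subunits and feedback genes 1 was higher and 1 lower (7 and 2), of 15 p53 targets 1 and 1 (1 and 2), and of 18 genes of hypoxia and glycolysis 1 and 2 (2 and 4). Of 20 genes of cycling cells 6 were lower and none higher, with a median of -0.30 (16 and 0, with -0.55). No member of these lists was called.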

How the data were processed

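Total RNA of whole lungs was sequenced in 9 libraries, with strand of the library kit not stated. The authors deposited raw read counts per gene and library in 3 tables, 1 for each pair of groups, per the file headers. The graft table also gives each gene's p-value, raw and adjusted, and its log2 ratio of the groups. These are the authors' own p-value and log2 columns, per the file headers, and are cited only as theirs. STAR, HTSeq, DESeq2, edgeR and STAR-Fusion and the build mm10 are named without versions in the submitters' processing notes, and the annotation is not stated. The repeated columns of the 9 libraries held the same counts, with 0 differing. mm10 is the C57BL/6 reference, and its effect on reads of Balb/C cells at MHC genes was not tested.

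Of 23944 genes, 15175 passed edgeR's filterByExpr on the 6 grafts. TMM factors came from all 9 libraries. The 3 against 3 libraries of the header (4 residual degrees of freedom) and the 2 against 2 placed alike (2 residual degrees of freedom) were each fitted with edgeR 4.0.16 (R 4.3.3) by the quasi-likelihood test, with Benjamini-Hochberg adjustment over all genes and a threshold of 0.05. Every adjusted p in the results without another tool beside it comes from this edgeR test. Errors after ± are standard errors of the log2 fold change. Log2 CPM used a prior count of 2. The script was tested on simulated data. Floors cover counting error only.

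Named genes were those called with a mean of at least 2 CPM and no overlap between groups, at most 12 rises and 12 falls, 8 genes set by name, and at most 4 members of a list, taken by adjusted p; families are named beside their list. The exceptions are Atp6v1b1 and the members of the clock and class II lists. Of 55 lists, 21 are of cell type markers and 34 of pathways. The genes, lists and motifs were chosen with earlier results of these data known. Alternatives were DESeq2 1.42.0, other scalings, no filter, the naive libraries in the fit, the titles' grouping, a replicate block and each library left out. Results for some genes are not reported here.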

Additional observations from a re-analysis of the deposited data

How the results depend on the processing

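The 17 genes called with the header grouping became 557 with DESeq2, 1.1e+02 (rounded) without a filter on low counts and 125 with the naive libraries in the fit (14 of the 17 among them). No gene was called with the titles' grouping (0) or in the 4 libraries (0). Leaving out 1 library each gave 0 to 214 calls. In the 4 libraries the count of 0 became 349 with DESeq2, 166 without the filter and 39 with the naive libraries in the fit, and leaving out 1 library each gave 0 to 744 calls, 744 without XW721L, where the lone shock library is assumed to vary like the others. The cause was not tested. Upper-quartile scaling and TMM factors from the 6 grafts gave 18 calls each.

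Whether the replicate numbers of the titles pair the libraries could not be settled. The deviations of same-numbered libraries from their title-group means correlated at -0.42, 0.09 and 0.06, and those of other pairs at -0.37 to 0.32. The disputed libraries are part of those means. With a replicate block 0 genes were called in the title grouping. In the header grouping only XW721L and XW745L share a replicate number across groups. A block there rests the contrast on these libraries alone, so it cannot test the header calls. In the 4 libraries the replicate block leaves no residual degrees of freedom and was not run. With the block in the header grouping the log2 fold change was -0.67 for Emr1 and -0.21 for Ctss, from XW721L against XW745L alone.

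The share of genes at which XW749L was nearer to the shock mean was 63.8% at an unadjusted p under 0.001. For XW744L it was 34.7% over all genes tested, 14.3% under 0.05 and 1.72% under 0.001.

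Directions of some uncalled genes reversed. With the titles' grouping the log2 fold change was -0.26 for Emr1, -0.02 for Cd163, 0.27 for Cry1, 0.37 for Myl7, 0.44 for Il6, -0.35 for Retnla, -0.07 for Msln and 0.01 for Actc1. In the 4 libraries it was -0.14 for Emr1, 0.13 for Cry1 and 0.26 for Il6. Leaving out 1 library each gave -0.21 to 0.70 for Emr1, -0.24 to 0.03 for Cry1, -0.43 to 0.33 for Il6, -0.29 to 0.23 for Il1b, -0.07 to 0.20 for Ctss and -0.02 to 0.24 for Nfil3.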
